A study of Mus musculus with 6 samples.

Results

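The transcripts described here encode 50 proteins of mouse energy metabolism that take glucose into the cell, split it to pyruvate and lactate, carry pyruvate into the mitochondrion, run the tricarboxylic acid (TCA) cycle and feed glutamine carbon into it. They were chosen by symbol from a written list of enzymes and carriers, though with earlier results of these data known. All 50 were found among the 57180 gene identifiers of the data and were among the 17639 genes with enough counts to be tested. RNA-seq had been done on primary corneal endothelial cells of mice homozygous for Col8a2Q455K, a collagen allele used to model Fuchs endothelial corneal dystrophy. A group of 3 libraries carried this genotype alone (Col8a2Q455K/Q455K, the Col8a2 group, labelled control and untreated), and a group of 3 carried in addition a heterozygous knockout of Tcf4 (Col8a2Q455K/Q455K/Tcf4+/-, the Tcf4+/- group). The Col8a2 mutation is therefore shared by every library, no library with unmutated Col8a2 was analysed here, and the labels give neither the age of the mice nor whether a library came from 1 animal or from pooled corneas.

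The corneal endothelium is a single cell layer that pumps fluid out of the stroma, and its ion pumps consume ATP throughout life. Glycolysis turns glucose into pyruvate in the cytosol, lactate dehydrogenase interconverts pyruvate and lactate, and the pyruvate dehydrogenase complex commits pyruvate to the TCA cycle, whose electrons feed the respiratory chain. Corneal endothelium is known both for high lactate transport and for the use of glutamine as a mitochondrial fuel.

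The libraries held between 30344161 and 54265479 estimated counts and 19680 to 22538 genes with a count. All 15 corneal endothelium markers looked up were counted in every library, with a summed level of 18780 to 28810 CPM (counts scaled to library size with TMM factors) in the Col8a2 and 14380 to 29380 CPM in the Tcf4+/- group. Markers of other eye tissues were present as well, and keratocyte and corneal epithelium markers summed to 9566 to 21530 CPM and 2362 to 7275 CPM over the 6 libraries. In such bulk RNA, fewer cells of a type and less RNA per cell cannot be told apart. The targeted gene, Tcf4, was at 313, 470 and 430 CPM in the Col8a2 and 440, 599 and 374 CPM in the libraries labelled Tcf4+/-, so its level did not separate the groups (edgeR log2 fold change 0.22, standard error (SE) 0.33, 95% interval -0.52 to 0.96). Which stretch of Tcf4 the knockout removes is not given in the sources used here. Every direction given here is between the libraries as labelled.

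The comparison asked how carrying 1 Tcf4 knockout allele on this background differs from the background alone. None of the 50 genes passed an adjusted p of 0.05 in edgeR's quasi-likelihood test, as 0% of all genes tested did, and each adjusted p was 0.9999. At an unadjusted p under 0.05, 1 of the 50 was higher in the Tcf4+/- group, the hexokinase Hk2, where 1.42% of all genes were, and 0 were lower, where 1.0% were. DESeq2 called 0 of the 50, and 107 of 21043 genes with an adjusted p, or 0.508%. The 3 libraries of each group did not overlap in CPM for 1 gene that was higher in the Tcf4+/- group, Pfkfb2 (4.53% of all genes), and for 1 that was lower, Fh1 (3.57%). As 1 gene is 2.0% of the 50, these counts lie near the background shares.

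By sign alone, 23 of the 50 genes had a higher and 27 a lower estimate in the Tcf4+/- group, with a median log2 fold change of -0.068 against 0.0011 over all genes tested. On the deposited TPM values, which adjust for length as well as depth, the split was 10 higher and 40 lower on the log2(TPM + 1) scale, on which the median of all genes was itself shifted to -0.15. Mitochondrial tRNA genes took 15.61% and 15.77% of the TPM in Tcf4+/- replicates 2 and 3 and 0% in the other libraries, and with these genes left out of the scaling the split was 16 higher and 34 lower, at a median of all genes of -0.027. With the lens marker level of each library as a covariate the split was 33 higher and 17 lower. The balance of signs thus moved with the scale and the covariate, while no setting tried called any of the 50.

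The size of change that these libraries allow differed widely between the genes. The 95% interval of the log2 fold change lay wholly between -1 and 1, a change of less than 2-fold either way, for 26 of the 50 genes or 52.0%, compared with 20.7% of all genes tested. Among genes with a mean of at least 10 TPM the shares were 61.9% of 42 of these genes and 44.7% of 7244 genes. The narrowest interval was that of Idh3b, a subunit of mitochondrial isocitrate dehydrogenase (log2 fold change -0.54 to 0.57), and the widest that of the scarce Pdk4 (-3.34 to 1.88).

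**Figure D1:**
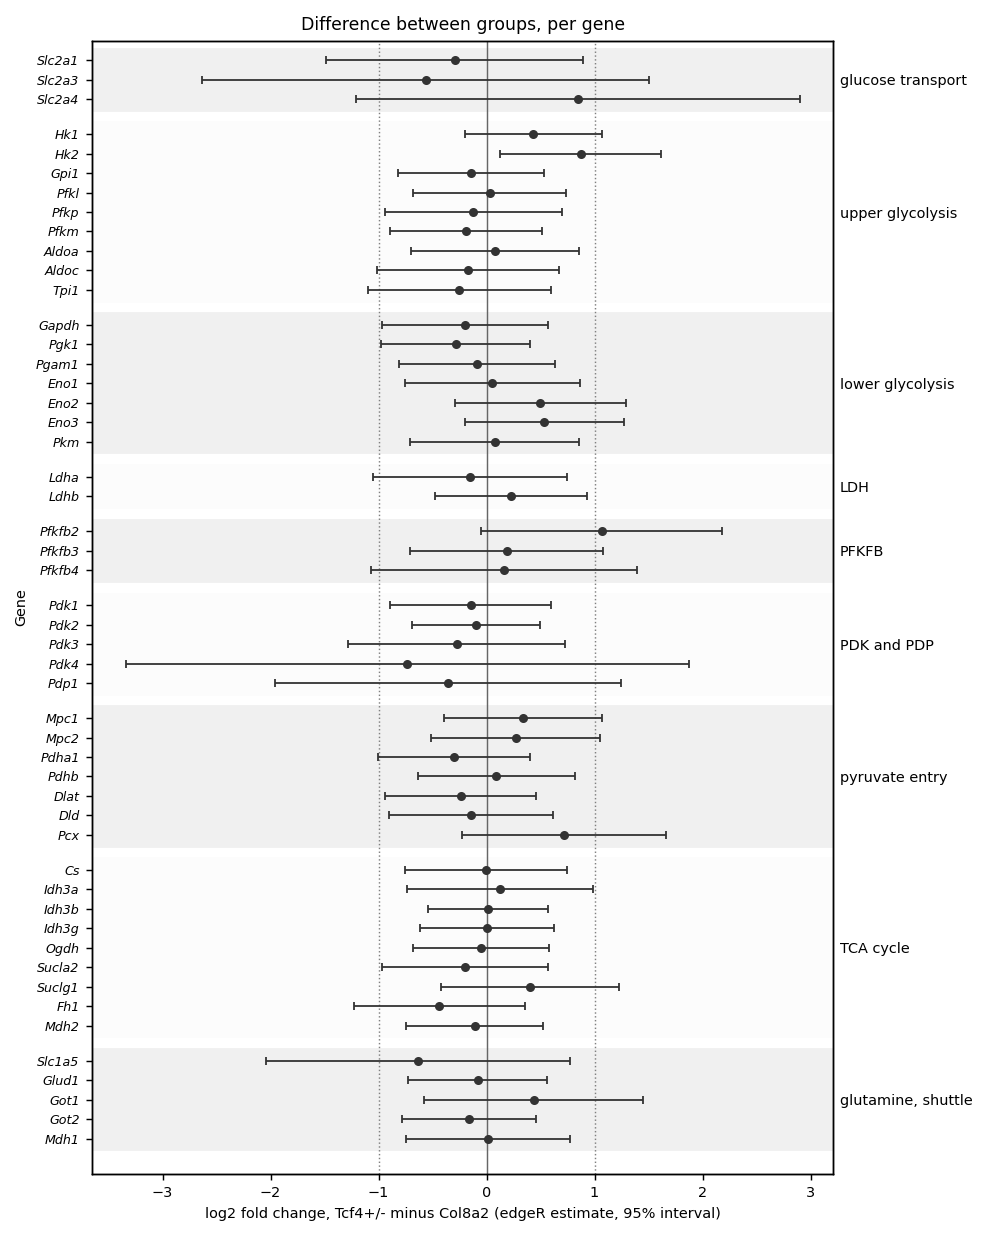
Log2 fold change of each of the 50 genes, Tcf4+/- minus Col8a2, from edgeR (x axis, points) with its 95% interval (bars), genes by role on the y axis; dotted lines mark a 2-fold change. Only the interval of Hk2 leaves out 0 (0.13 to 1.62), and 26 of the 50 intervals lie between the dotted lines.

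Glucose enters through facilitative transporters, and Slc2a1, the transporter of many barrier epithelia, dominated. Per length, Slc2a1 made up 97.0 ± 3.27% of the summed TPM of Slc2a1, Slc2a3 and Slc2a4 in the Col8a2 and 93.6 ± 6.98% in Tcf4+/- libraries (mean ± SD, n = 3 each). Slc2a1 was at 319, 629 and 354 CPM in the Col8a2 and 382, 562 and 116 CPM in the Tcf4+/- libraries. Tcf4+/- replicate 3 was lowest by a wide margin and the groups overlapped (log2 fold change -0.30, SE 0.53, 95% interval -1.49 to 0.90 by edgeR). The sign rested on single libraries, since the estimate was 0.11 without Tcf4+/- replicate 3 and 0.073 without Col8a2 replicate 2. The corneal endothelium markers summed to 14380 CPM in that same Tcf4+/- replicate 3, the lowest of the 6 libraries, and the lens markers to 11280 CPM, the highest. Over the groups the lens sums were 33.9 to 629 and 95.7 to 11280 CPM, with 8 of 16 lens markers counted in every library and Crygd and Gja3 at 0 in a whole group. Their most abundant members, Cryaa and Crybb2, averaged 113 ± 121 and 91.1 ± 89.1 CPM in the Col8a2 group but 1800 ± 2204 and 1724 ± 1698 CPM in the Tcf4+/- group. With the lens marker level as a covariate the estimate for Slc2a1 was 0.23, a turned sign, and with the corneal endothelium level it was -0.33.

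The remaining glucose transporters were scarce. Slc2a4, the insulin-responsive transporter of muscle and fat, ranged from 0.59 to 2.04 TPM, with 2.23, 2.46 and 1.25 CPM in the Col8a2 and 4.07, 4.20 and 2.40 CPM in the Tcf4+/- libraries (log2 fold change 0.84, SE 0.92, 95% interval -1.21 to 2.90 by edgeR). Its share of the transporter TPM was 0.317 to 0.67% in the Col8a2 and 0.733 to 4.06% in the Tcf4+/- group, without overlap, while its CPM overlapped. The share of 4.06% was that of Tcf4+/- replicate 3, where Slc2a1, the bulk of the sum, had its lowest value of 42.99 TPM. In that library the estimated length of Slc2a4 was 1121 bases, from 71 counts, against 2393 to 2539 bases in the others. Slc2a3, known as a neuronal transporter of high affinity, spanned 1.10 to 40.8 CPM within the Col8a2 group alone. The skeletal muscle markers, of which 12 of 15 were counted in every library and Myh13 was at 0 in a whole group, summed to 27.8 to 200.1 CPM in the Col8a2 and 169 to 482.7 CPM in the Tcf4+/- group. Their most abundant members, Acta1 and Tnnc2, averaged 27.6 ± 28.1 and 11.8 ± 10.2 CPM in the Col8a2 against 68.9 ± 42.9 and 46.7 ± 23.2 CPM in the Tcf4+/- group, and their part in the Slc2a4 values was not tested.

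**Figure D2:**
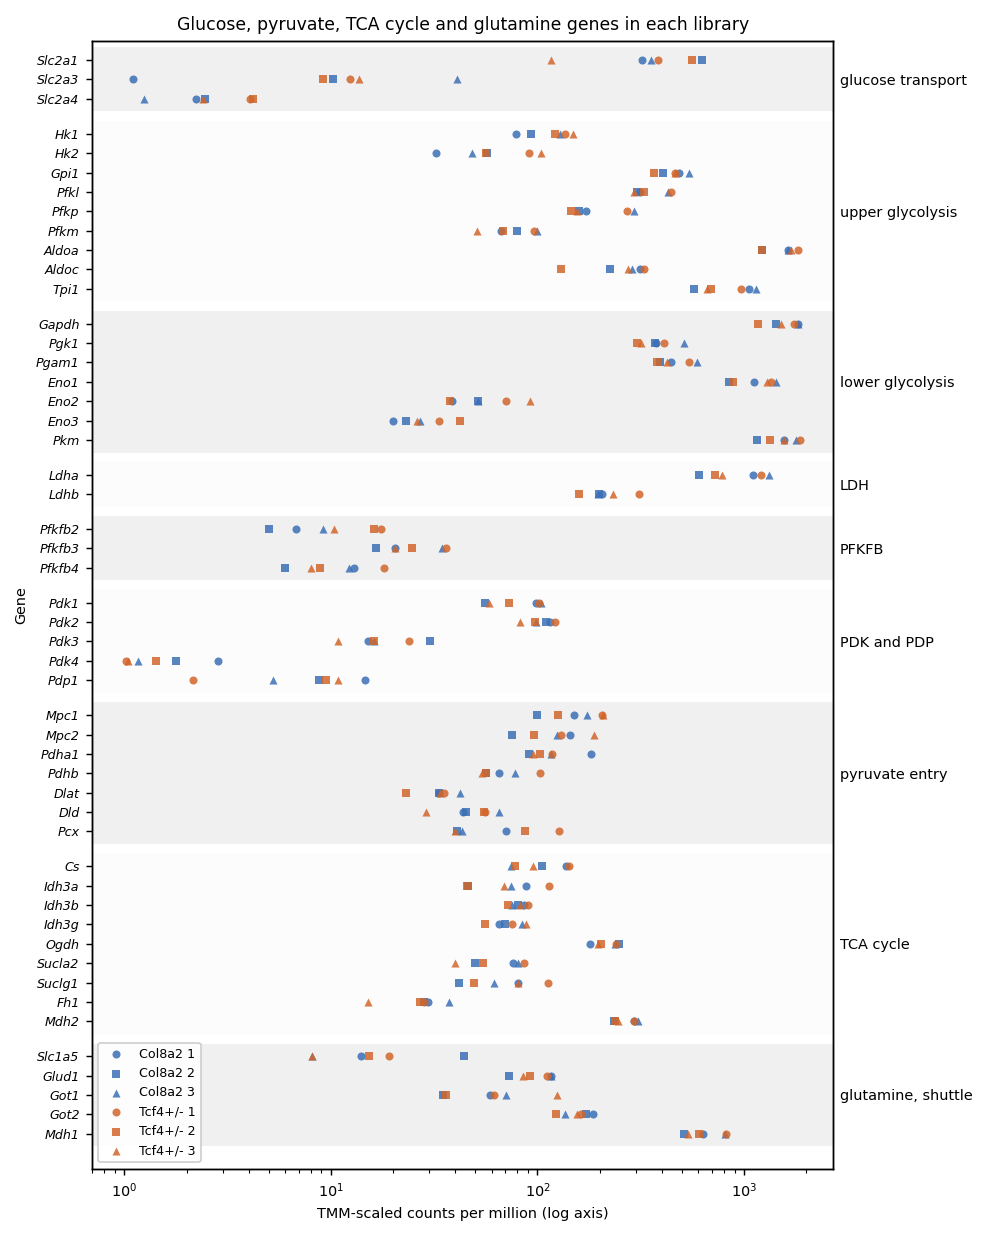
TMM-scaled CPM (x axis, log scale) of each of the 50 genes in every library, genes by role on the y axis; blue is Col8a2, orange Tcf4+/-, and circle, square and triangle are replicates 1, 2 and 3. The groups are intermixed in nearly every row, with Pfkfb2 (orange above blue) and Fh1 (orange below blue) the only rows in which they do not overlap.

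Hexokinase phosphorylates glucose and so traps it in the cell. Hk2, the inducible isozyme that can bind mitochondria, had the smallest p of the 50 genes. It was at 32.2, 57.2 and 48.1 CPM in the Col8a2 and 91.2, 56.4 and 104 CPM in the Tcf4+/- libraries. Tcf4+/- replicates 1 and 3 lay above every Col8a2 library, while replicate 2 lay just under the highest of them (1.83-fold, log2 fold change 0.87, 95% interval 0.13 to 1.62, SE 0.33, adjusted p = 0.9999 by edgeR). With each of the 6 libraries left out in turn, the unadjusted p of Hk2 was not under 0.05 without Col8a2 replicate 1 (log2 fold change 0.67), Col8a2 replicate 3 (0.91), Tcf4+/- replicate 1 (0.80) or Tcf4+/- replicate 3 (0.68).

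The count difference of Hk2 went with a difference in its estimated transcript length. RSEM's abundance-weighted length for Hk2 was 1044, 1310 and 1208 bases in the Col8a2 and 1704, 1522 and 1939 bases in the Tcf4+/- libraries, so that every Tcf4+/- library was longer than every Col8a2 library. The means were 1187 ± 134 and 1722 ± 209 bases, a ratio of 1.45 (n = 3 each, no test), and 58 of all genes tested, 0.329%, were longer by at least as much without overlap. That share is counted from Hk2's own ratio and is a description, not a p-value. In the annotation used for names, Hk2 has 4 transcripts of 5513, 2792, 594 and 505 bases, so a longer mean length corresponds to a larger share given to the longer ones. After division by length, Hk2 was at 39.01, 66.67 and 53.64 TPM in the Col8a2 and 65.39, 43.6 and 48.11 TPM in the Tcf4+/- group. On that scale the means were 53.1 ± 13.8 and 52.4 ± 11.5 TPM and the log2 difference was -0.0083. With the mitochondrial tRNA genes left out of the scaling they were 53.1 ± 13.8 and 58.1 ± 6.91 TPM. The TPM means thus differed by less than the SD within a group, while the counts differed by 1.83-fold.

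Of the 50 genes, 2 were longer without overlap in the Tcf4+/- group, Hk2 and Ogdh, against 2.36% of all genes tested, and 6 were shorter, Slc2a4, Hk1, Tpi1, Mpc2, Got1 and Mdh1, against 3.75%. Apart from Hk2 and Slc2a4 the shifts were small, as in Ogdh, at 3741 to 3896 bases in the Col8a2 and 3965 to 4079 bases in the Tcf4+/- libraries. The mean fragment length behind these estimates was not the same in all libraries, since length minus effective length was 211 to 241 bases in 4 of them and 155 and 150.1 bases in Tcf4+/- replicates 2 and 3. Its part in the lengths was not tested.

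**Figure D3:**
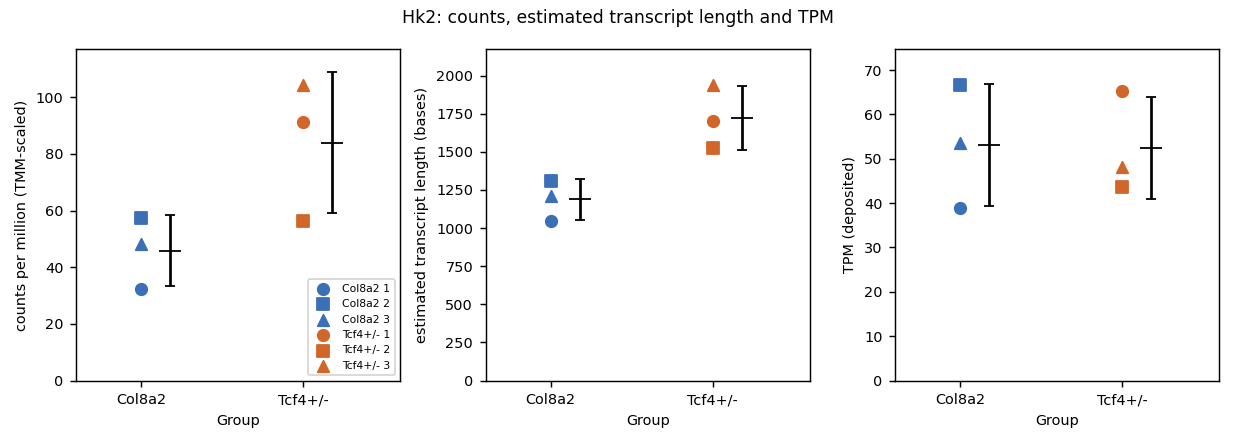
Hk2 in each library by group (x axis) as TMM-scaled CPM, estimated transcript length in bases and deposited TPM (y axes of the 3 panels); the bar beside the points is the mean ± SD of 3 libraries. The length panel shows no overlap between groups (1044 to 1310 against 1522 to 1939 bases), and the TPM panel shows means of 53.1 and 52.4.

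Hk1, the constitutive hexokinase of brain and red cells, was at 78.5, 93.1 and 129 CPM in the Col8a2 and 136, 121 and 149 CPM in the Tcf4+/- libraries (log2 fold change 0.43, SE 0.28, 95% interval -0.20 to 1.07 by edgeR). Only Col8a2 replicate 3 reached into the range of the Tcf4+/- group. Per length, Hk2 was the larger part of the pair, at 62.5 ± 5.05% of their TPM in the Col8a2 and 56.5 ± 3.0% in the Tcf4+/- group, with overlap. By counts the order was reversed in every library, with group means of 100.1 and 135.4 CPM for Hk1 and 45.9 and 84.0 CPM for Hk2. The TPM order thus rests on RSEM's estimated lengths, 1044 to 1939 bases for Hk2 and 3330 to 3821 bases for Hk1. The photoreceptor markers, all 10 counted in every library, summed to 3880, 2673 and 2892 CPM in the Col8a2 and 5512, 2685 and 11640 CPM in the Tcf4+/- libraries. Hk1, Hk2 and Eno2 stood in that same order within the Tcf4+/- group, but in the Col8a2 group all 3 were lowest in replicate 1, where the photoreceptor sum was highest. Pde6g, an abundant member of the list, averaged 328 ± 98.1 CPM in the Col8a2 against 683 ± 497 CPM in the Tcf4+/- group. The erythroid markers, of which 5 of 7 were counted in every library and Slc4a1 was at 0 in a whole group, summed to 1296, 533 and 1968 CPM in the Col8a2 and 6128, 1362 and 2943 CPM in the Tcf4+/- libraries. Hba-a1 and Hba-a2, the most abundant of them, averaged 479 ± 282 and 459 ± 271 CPM in the Col8a2 against 1219 ± 877 and 1266 ± 846 CPM in the Tcf4+/- group. The part of photoreceptor and red cell RNA in the hexokinase and Eno2 values was not tested.

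By counts, the other enzymes of upper glycolysis differed less between groups than within them. Aldoa, the aldolase that splits fructose bisphosphate, was the most abundant of them and was at 1639, 1217 and 1630 CPM in the Col8a2 and 1830, 1220 and 1679 CPM in the Tcf4+/- libraries. Replicate 2 was the low library in each group (log2 fold change 0.076, SE 0.35, 95% interval -0.70 to 0.85 by edgeR), and the estimate was -0.18 on the log2(TPM + 1) scale. Aldoa made up 86.8 ± 0.587% of aldolase TPM in the Col8a2 and 89.0 ± 2.39% in the Tcf4+/- group, and the brain-type Aldoc the rest. A separate identifier that also carries the symbol Aldoa was not added. Gpi1, which isomerises glucose phosphate, ranged from 367 to 541 CPM over the 6 libraries, and triose phosphate isomerase, Tpi1, from 570.2 to 1140 CPM. Gpi1 overlapped between groups in CPM but not in deposited TPM. It was at 321, 379 and 388 TPM in the Col8a2 and 285, 257 and 245 TPM in the Tcf4+/- libraries. On the log2(TPM + 1) scale the median of all genes was itself shifted to -0.15, and the share of all genes without overlap in TPM is not reported here. Phosphofructokinase, the main control point of the pathway, was a mixture of liver, platelet and muscle types. Pfkl made up 49.5 ± 2.76%, Pfkp 35.2 ± 3.56% and Pfkm 15.3 ± 1.48% of its TPM in Col8a2 libraries, against 53.5 ± 2.6%, 32.7 ± 2.47% and 13.7 ± 1.29% in the Tcf4+/- group.

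Lower glycolysis, from glyceraldehyde phosphate to pyruvate, held the most abundant transcripts of the set. Gapdh, which makes the NADH of glycolysis, reached 2041 TPM, the highest value of any of the 50 genes, and was at 1829, 1427 and 1826 CPM in the Col8a2 and 1739, 1172 and 1510 CPM in the Tcf4+/- libraries (log2 fold change -0.20, SE 0.34, 95% interval -0.97 to 0.57 by edgeR). Pkm, the pyruvate kinase that yields ATP and pyruvate, stood at 1566, 1154 and 1782 CPM and 1862, 1330 and 1554 CPM. Pgk1, the first ATP-yielding enzyme of the pathway, was at 374, 372 and 513 CPM and 412, 302 and 318 CPM (log2 fold change -0.29, SE 0.31, 95% interval -0.98 to 0.41 by edgeR). In CPM the ranges of the groups overlapped for all 3 genes. In deposited TPM those of Pkm and Pgk1 overlapped and that of Gapdh did not. Gapdh was at 1882, 1722 and 2041 TPM in the Col8a2 and 1703, 1169 and 1203 TPM in the Tcf4+/- libraries. Pgam1, which moves the phosphate of phosphoglycerate, spanned 379 to 594 CPM over the 6 libraries.

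Enolase, which makes phosphoenolpyruvate, has ubiquitous, neuronal and muscle forms in Eno1, Eno2 and Eno3. Eno1 held 94.0 ± 1.44% of their TPM in the Col8a2 and 92.1 ± 0.947% in the Tcf4+/- group. Reads of Eno1 cannot be cleanly told from those of its near-identical copy Eno1b, which took between 19.5 and 35.7% of their joint counts, so their sum is the safer value, at 1541 ± 401 CPM in the Col8a2 and 1595 ± 266 CPM in the Tcf4+/- group. Eno3 was at 20.1, 23.2 and 27.0 CPM in the Col8a2 and 33.4, 42.3 and 26.0 CPM in the Tcf4+/- libraries, with Tcf4+/- replicates 1 and 2 above every Col8a2 library (log2 fold change 0.53, SE 0.33, 95% interval -0.20 to 1.27 by edgeR). Those 2 libraries also held the highest skeletal muscle marker sums, 276 and 482.7 CPM, and the part of muscle RNA in Eno3 was not tested. Eno2 was at 38.5, 51.8 and 51.6 CPM and 70.7, 37.6 and 92.3 CPM (log2 fold change 0.50, SE 0.35, 95% interval -0.29 to 1.29 by edgeR). Without Tcf4+/- replicate 2 the Eno2 estimate was 0.80 with an unadjusted p under 0.05. Its highest value fell in Tcf4+/- replicate 3, the library with the highest photoreceptor sum. Neuron and Schwann cell markers summed to 331.9, 265.1 and 372.3 CPM in the Col8a2 and 485.4, 197.2 and 647.9 CPM in the Tcf4+/- libraries. Eno2 stood in that order within the Tcf4+/- group. In the Col8a2 group it was highest in replicate 2, where this sum was lowest. The part of neuronal RNA in Eno2 was not tested.

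Lactate dehydrogenase was mainly of the Ldha type, whose subunit favours lactate formation. Ldha made up 77.6 ± 6.81% of the TPM of the pair in the Col8a2 and 75.2 ± 3.19% in the Tcf4+/- group, with Ldhb, the heart-type subunit, as the rest. Ldha was at 1101, 602 and 1324 CPM in the Col8a2 and 1214, 726 and 781 CPM in the Tcf4+/- libraries (log2 fold change -0.15, SE 0.40, 95% interval -1.05 to 0.75 by edgeR). Its spread within each group was larger than the difference between them, and the estimate was 0.091 without Col8a2 replicate 3. Ldhb was nearly level in the Col8a2 group, at 205, 198 and 196 CPM, and scattered in the Tcf4+/- group, at 312, 159 and 231 CPM.

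The PFKFB enzymes make and break fructose bisphosphate of the regulatory kind, the strongest activator of phosphofructokinase. Pfkfb2, the isozyme first described in heart, was at 6.75, 5.01 and 9.19 CPM in the Col8a2 and 17.5, 16.1 and 10.3 CPM in the Tcf4+/- libraries. Every Tcf4+/- library was above every Col8a2 library, though Tcf4+/- replicate 3 only narrowly (2.10-fold, log2 fold change 1.07, 95% interval -0.047 to 2.18, SE 0.50, adjusted p = 0.9999 by edgeR). On the TPM scale the groups overlapped, at 2.39, 2.2 and 3.14 TPM and 6.07, 5.18 and 2.87 TPM. The unadjusted p was under 0.05 with DESeq2 and with limma voom. Pfkfb3, the isozyme of highest kinase activity and the most abundant here, was at 20.5, 16.5 and 34.5 CPM and 36.3, 24.8 and 20.4 CPM (log2 fold change 0.19, SE 0.40, 95% interval -0.71 to 1.08 by edgeR), with an estimate of -0.36 on the log2(TPM + 1) scale. The hypoxia-inducible Pfkfb4 ranged from 5.996 to 18.1 CPM with overlap.

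Within this family the make-up was set beside the total, with no test. Pfkfb2 took 17.2, 13.4 and 16% of the summed TPM of the 3 PFKFB genes in the Col8a2 and 26.4, 33.1 and 27% in the Tcf4+/- libraries, or 15.5 ± 1.96% against 28.8 ± 3.74%. Pfkfb3 took 50.1, 65.6 and 57.5% against 44.5, 45.7 and 46.9%, and the share of Pfkfb4 overlapped. The summed level was 16.7 ± 2.90 TPM in the Col8a2 and 16.4 ± 6.21 TPM in the Tcf4+/- group. Shares of a sum are tied to each other, so the higher share of Pfkfb2 and the lower share of Pfkfb3 are not separate observations. Apart from these and Slc2a4, every isozyme share looked at overlapped between groups. With 3 libraries a group, values without overlap reach no less than p = 0.1 in an exact permutation test, before any allowance for the number of shares.

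**Figure D4:**
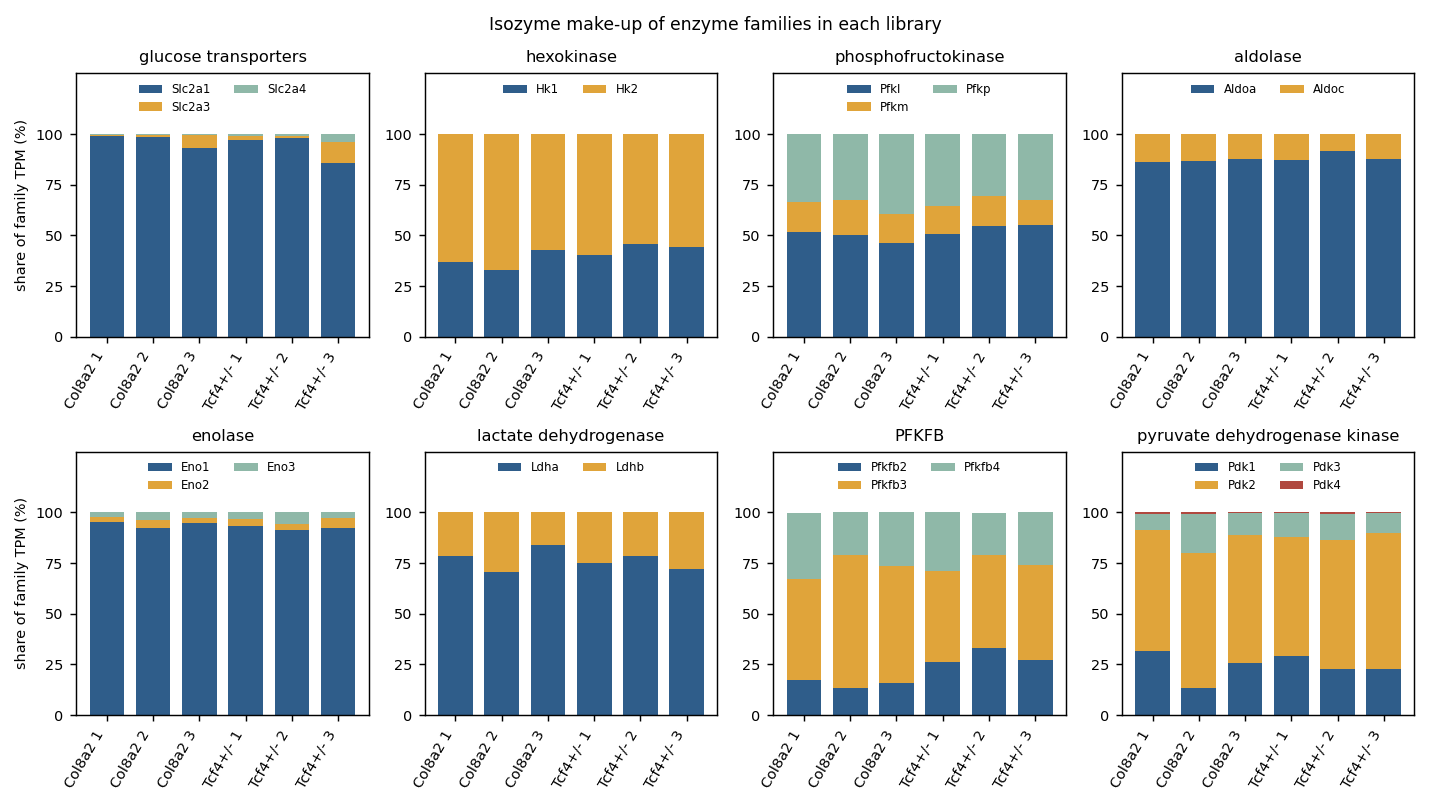
Share of summed TPM (y axis, percent) taken by each isozyme of 8 enzyme families (panels) in each library (x axis). Slc2a1, Aldoa, Eno1 and Ldha lead their families in all 6 libraries, and Pfkfb2 is larger in all Tcf4+/- libraries (26.4 to 33.1%) than in the Col8a2 libraries (13.4 to 17.2%). Of the shares shown, only those of Pfkfb2, Pfkfb3 and Slc2a4 do not overlap between groups, and none was tested.

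Pyruvate dehydrogenase kinases switch off the entry of pyruvate into the TCA cycle, and the phosphatase Pdp1 switches it on again. All 5 of these genes had a lower estimate in the Tcf4+/- group, and none had an unadjusted p under 0.05. Pdk2, the widely expressed kinase, was the main one, at 63.2 ± 3.55% of kinase TPM in the Col8a2 and 63.3 ± 4.47% in the Tcf4+/- group. Pdk2 was at 115, 109.6 and 97.9 CPM in the Col8a2 and 122, 97.1 and 82.7 CPM in the Tcf4+/- libraries (log2 fold change -0.097, SE 0.27, 95% interval -0.69 to 0.50 by edgeR), and its estimate was 0.017 without Tcf4+/- replicate 3. The hypoxia-responsive Pdk1 came next in level and ranged from 55.8 to 104 CPM over the 6 libraries. Pdk4, the kinase that rises in fasting, was nearly absent at 1.02 to 2.85 CPM, and the 95% intervals of both it and Pdp1, at 2.14 to 14.7 CPM, reached past 2-fold in either direction.

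Pyruvate reaches the mitochondrial matrix through a carrier made of Mpc1 and Mpc2. Mpc1 was at 150.3, 99.9 and 174 CPM in the Col8a2 and 205, 126 and 206 CPM in the Tcf4+/- libraries (log2 fold change 0.34, SE 0.33, 95% interval -0.39 to 1.07 by edgeR), and its difference was -0.035 on the log2(TPM + 1) scale. Mpc2 was at 144, 75.5 and 124 CPM and 130.2, 96.3 and 188 CPM (log2 fold change 0.27, SE 0.35, 95% interval -0.52 to 1.05). Both carrier subunits overlapped between groups and were at near-equal TPM, Mpc1 taking 54.3 ± 4.62% of the pair in the Col8a2 and 53.2 ± 5.48% in the Tcf4+/- group.

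Pyruvate dehydrogenase itself was level within its spread. Pdha1, the catalytic subunit that the kinases phosphorylate, was at 181, 90.6 and 116 CPM in the Col8a2 and 117, 103 and 94.6 CPM in the Tcf4+/- libraries (log2 fold change -0.30, SE 0.31, 95% interval -1.005 to 0.40 by edgeR), and its estimate was 0.020 without Col8a2 replicate 1. Dlat, the acetyltransferase core, was at 33.4, 33.2 and 42.2 CPM and 35.2, 23.2 and 33.8 CPM (log2 fold change -0.24, SE 0.31, 95% interval -0.94 to 0.46). Pdhb, its partner in the catalytic subunit, spanned 53.8 to 103 CPM and the shared dehydrogenase Dld 28.8 to 65.2 CPM over the 6 libraries. Pcx, pyruvate carboxylase, which refills the cycle with oxaloacetate, was the most uneven of this group at 70.6, 40.9 and 43.2 CPM and 127, 87.4 and 40 CPM. Tcf4+/- replicates 1 and 2 were its highest libraries and Tcf4+/- replicate 3 its lowest (log2 fold change 0.72, SE 0.42, 95% interval -0.23 to 1.66 by edgeR). Without that lowest library the Pcx estimate was 1.05 with an unadjusted p under 0.05, and without Tcf4+/- replicate 1 it was 0.30.

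Of the 9 TCA cycle genes, 7 had a 95% interval within 2-fold either way, against 26 of the 50. Cs, citrate synthase, which opens the cycle, averaged 106 ± 31.1 CPM in the Col8a2 and 105 ± 33.2 CPM in the Tcf4+/- group. The 3 subunits of isocitrate dehydrogenase, Idh3a, Idh3b and Idh3g, averaged 69.7 ± 21.4, 80.5 ± 5.58 and 73.0 ± 9.81 CPM in the Col8a2 against 76.0 ± 34.9, 81.5 ± 9.22 and 73.1 ± 16.2 CPM in the Tcf4+/- group. Ogdh, the oxoglutarate dehydrogenase, averaged 222 ± 36.4 and 213 ± 24.0 CPM. For each of these 5 genes the group means differed by less than the SD within either group. Mdh2, the matrix malate dehydrogenase that closes the cycle, was at 293, 234 and 305 CPM and 292, 236 and 245 CPM (log2 fold change -0.11, SE 0.28, 95% interval -0.74 to 0.53 by edgeR).

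Among the TCA cycle genes, only the intervals of fumarase and of Suclg1, a succinyl-CoA ligase subunit, reached past 2-fold. Suclg1, the subunit common to both forms of the ligase, was at 80.2, 41.5 and 61.4 CPM in the Col8a2 and 112, 49.1 and 80.7 CPM in the Tcf4+/- libraries, overlapping (log2 fold change 0.40, SE 0.37, 95% interval -0.42 to 1.23 by edgeR), while its ATP-forming partner Sucla2 spanned 40.04 to 85.6 CPM. Fh1, fumarase, was at 29.6, 28.3 and 37.4 CPM in the Col8a2 and 28.2, 27.1 and 15.2 CPM in the Tcf4+/- libraries. The groups did not overlap, but Col8a2 replicate 2 and Tcf4+/- replicate 1 were only just apart, and Tcf4+/- replicate 3 set most of the difference (0.740-fold, log2 fold change -0.44, 95% interval -1.23 to 0.36, SE 0.35, by edgeR). Without that library the Fh1 estimate was -0.21.

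Glutamine enters through Slc1a5, a neutral amino acid exchanger, and its carbon reaches the cycle through Glud1 and the aminotransferases Got1 and Got2. Slc1a5 was at 14.0, 44.3 and 8.12 CPM in the Col8a2 and 19.2, 15.3 and 8.13 CPM in the Tcf4+/- libraries, Col8a2 replicate 2 standing far above the rest (log2 fold change -0.64, SE 0.63, 95% interval -2.04 to 0.77 by edgeR). Without that library the Slc1a5 estimate was 0.37. Glud1, glutamate dehydrogenase, spanned 72.5 to 117 CPM over the 6 libraries. Got1, the cytosolic aminotransferase of the malate-aspartate shuttle, was at 58.8, 34.9 and 70.4 CPM and 61.7, 36.2 and 124 CPM, with Tcf4+/- replicate 3 the highest (log2 fold change 0.44, SE 0.45, 95% interval -0.58 to 1.45 by edgeR), and without it the estimate was -0.17. Its mitochondrial counterpart Got2 spanned 123.1 to 186 CPM. Mdh1, the cytosolic malate dehydrogenase of the shuttle, was at 630, 511 and 808 CPM and 820.2, 608 and 537 CPM (log2 fold change 0.012, SE 0.34, 95% interval -0.75 to 0.77 by edgeR), and its estimate was -0.086 on the log2(TPM + 1) scale. Mdh1 took 63.4 ± 3.59% of the malate dehydrogenase TPM in the Col8a2 and 67.4 ± 1.17% in the Tcf4+/- group.

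Many of these genes varied together in a way that cut across the groups. Of the 50, 15 were lowest of the 6 libraries in Col8a2 replicate 2 and Tcf4+/- replicate 2, in either order, where 9.79% of all genes tested were. These were Gpi1, Aldoa, Aldoc, Gapdh, Pgam1, Eno1, Pkm, Ldha, Mpc1, Mpc2, Dlat, Idh3a, Suclg1, Mdh2 and Got1, a pattern noticed after the values were seen. The 18 glycolytic enzymes from hexokinase to lactate dehydrogenase summed to 10840, 8179 and 12340 CPM in the Col8a2 and 12170, 8154 and 10060 CPM in the Tcf4+/- libraries. Replicate 2 was the lowest in each group, and the group means were 10450 ± 2107 and 10130 ± 2007 CPM. Slc2a1 went the other way and was highest in the same 2 libraries, at 629 and 562 CPM. Corneal epithelium markers, all 8 counted in every library, summed to 3185 and 2362 CPM in those 2 libraries and 4227 to 7275 CPM in the other 4. Krt12, the marker of highest TPM, was at 3796, 1909 and 2436 CPM in the Col8a2 and 4585, 501 and 2288 CPM in the Tcf4+/- libraries and so was lowest in those 2 libraries. Krt15, the next by TPM, was at 819, 299 and 503.5 CPM and 481.5, 1195 and 1059 CPM, and was lowest in Col8a2 replicate 2 but highest in Tcf4+/- replicate 2. Photoreceptor markers were also lowest in those 2 libraries, at 2673 and 2685 CPM against 2892 to 11640 CPM elsewhere. So were neuron and Schwann cell markers, at 265.1 and 197.2 CPM against 331.9 to 647.9 CPM. No other marker list had its 2 lowest sums in those libraries. The erythroid sum was also lowest in replicate 2 within each group, at 533 and 1362 CPM, but Col8a2 replicate 1, at 1296 CPM, lay below the latter. The part of RNA from these tissues in the glycolytic values was not tested.

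**Figure D5:**
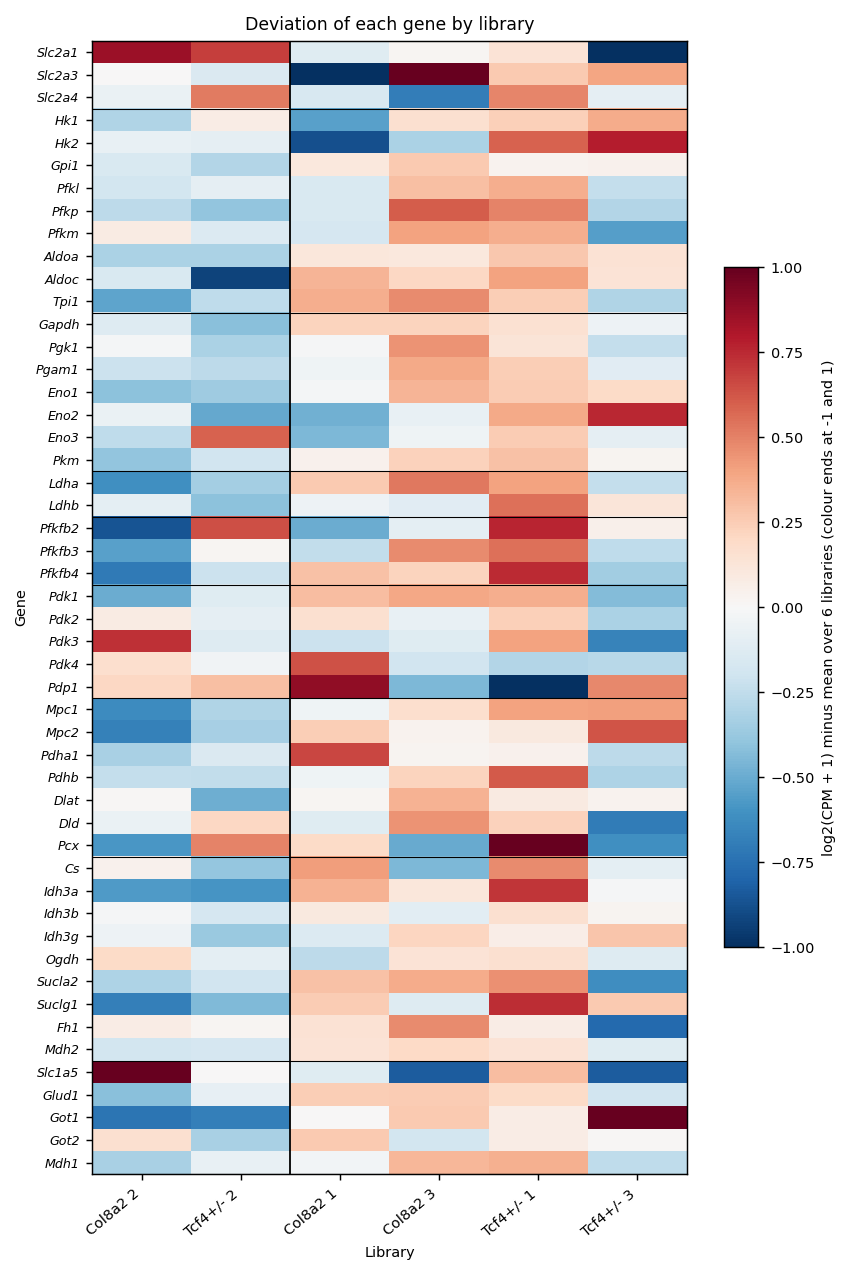
Deviation of log2(CPM + 1) from its mean over the 6 libraries (colour, red above and blue below, ending at -1 and 1) for each of the 50 genes (rows) in each library (columns, with the replicate 2 libraries set first). Most glycolytic rows are blue in both replicate 2 columns, where the summed glycolytic enzymes were at 8179 and 8154 CPM, and Slc2a1 is red there.

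The promoters of a few of these genes are shown because the pathway is a textbook set of targets of hypoxia-inducible factors and Myc, and because Tcf4 is an E protein that binds E-box motifs. The windows are the 250 bases before the transcription start in RefSeq on build GRCm38.p6, a build other than that of the deposited values, 5′ to 3′ on the gene's strand, with capitals for ACGTG, for its reverse complement CACGT and for CACGTG, in which both overlap. They cover Hk2, the gene of smallest p (chr6:82774455-82774704, minus strand), Ldha, of the group that was low in both replicate 2 libraries (chr7:46845554-46845803, plus strand, the first of its windows), and Slc2a1, which was high in those libraries (chr4:119108495-119108744, plus strand).
Hk2: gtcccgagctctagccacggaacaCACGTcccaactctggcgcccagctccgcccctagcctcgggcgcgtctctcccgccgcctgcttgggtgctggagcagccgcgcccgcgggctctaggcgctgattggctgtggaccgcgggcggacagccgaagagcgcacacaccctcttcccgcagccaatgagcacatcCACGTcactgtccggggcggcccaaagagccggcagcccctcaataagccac
Ldha: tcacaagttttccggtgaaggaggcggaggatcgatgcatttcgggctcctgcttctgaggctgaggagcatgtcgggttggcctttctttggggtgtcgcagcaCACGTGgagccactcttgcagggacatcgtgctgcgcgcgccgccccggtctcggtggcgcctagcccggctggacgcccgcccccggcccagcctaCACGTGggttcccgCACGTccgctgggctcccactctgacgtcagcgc
Slc2a1: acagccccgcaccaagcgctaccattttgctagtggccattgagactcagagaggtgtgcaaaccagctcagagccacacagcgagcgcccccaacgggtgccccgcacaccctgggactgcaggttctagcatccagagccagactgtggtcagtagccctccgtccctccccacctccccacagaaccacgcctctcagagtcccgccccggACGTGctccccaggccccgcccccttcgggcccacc
The windows hold 2 separate matches in Hk2, 3 in Ldha and 1 in Slc2a1, and were chosen as ones that hold a match. The other Ldha window has 0, as have all 3 windows of Eno1, a gene that was also low in both replicate 2 libraries. The E-box forms CAGCTG and CACCTG were not marked in the printed windows, so the capitals do not show E-protein motifs of those forms.

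Over the set, 45 of the 50 genes matched a promoter entry, with 68 windows; Pdp1, Slc2a4, Idh3a, Slc2a3 and Slc1a5 had none. The core hypoxia response letters ACGTG, read on both strands, were in 26 of the 68 windows or 38.2%, belonging to 17 genes, and in 16.6% of all 32851 promoter windows of that length. The E-box CACGTG, which contains ACGTG, was in 13.2% of the windows of these genes and 6.02% of all windows. The E-box forms CAGCTG and CACCTG, which E proteins are known to bind, were in 10.3% and 10.3% of them and in 13.0% and 17.2% of all windows. Such matches describe the letters of the window and are not binding sites measured here.

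A wider list of 114 genes of the same pathways was written beside the 50, of which 102 were tested. Of these, 34 had a higher and 68 a lower estimate in the Tcf4+/- group (8839 and 8800 among all genes tested), with a median log2 fold change of -0.11 (0.0011 for all genes), and 0 passed an adjusted p of 0.05 in edgeR. An unadjusted p under 0.05 was reached by 2 of the 102, Slc1a4 and Txnip, and by 427 of the 17639 genes tested, so the count is near the background. Slc1a4, an exchanger of neutral amino acids, was at 28.0, 72.3 and 86.5 CPM in the Col8a2 and 33.4, 32.3 and 20.02 CPM in the Tcf4+/- libraries, overlapping through Col8a2 replicate 1 (log2 fold change -1.12, SE 0.43, 95% interval -2.09 to -0.16 by edgeR). Txnip, which is induced by glucose and restrains its uptake, was at 108, 96.6 and 125 CPM and 138, 188 and 177 CPM, without overlap (log2 fold change 0.61, SE 0.27, 95% interval 0.00050 to 1.21 by edgeR). On the log2(TPM + 1) scale the difference of Txnip was 0.12.

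By list, the wider pyruvate and TCA cycle genes had 4 higher and 21 lower estimates of 25 tested, at a median of -0.16, and those of glutamine and shuttles 5 higher and 13 lower of 18, at -0.24. Glucose handling had 11 higher and 11 lower of 22, the pentose phosphate pathway 3 and 4 of 7, regulators 8 and 16 of 24, and lactate transport 3 and 3 of 6. As mean log2(CPM + 1), the whole pyruvate and TCA cycle list stood at 5.13, 4.96 and 5.30 in the Col8a2 libraries. In the Tcf4+/- libraries it stood at 5.29, 4.94 and 4.67. For glutamine and shuttles the levels were 4.70, 4.92 and 4.83 against 4.79, 4.70 and 4.56. Both lists overlapped between groups and were lowest in Tcf4+/- replicate 3. Whether the splits of the wider lists move with the scale or the lens level was not tested. The genes of smallest p outside the pair above had these values. Tfam, which packages and transcribes mitochondrial DNA, was at 18.1, 22.9 and 27.8 CPM in the Col8a2 and 11.99, 14.1 and 15.4 CPM in the Tcf4+/- libraries, without overlap (log2 fold change -0.73, SE 0.37, 95% interval -1.56 to 0.10 by edgeR). Prodh, the first enzyme of proline breakdown, averaged 51.7 ± 15.8 and 33.5 ± 7.96 CPM (log2 fold change -0.63, SE 0.34, 95% interval -1.39 to 0.13). Hkdc1, a hexokinase relative, was scarce at 0 to 0.404 CPM in the Col8a2 and 0.101 to 4.91 CPM in the Tcf4+/- libraries (log2 fold change 3.90, SE 1.99, 95% interval -0.56 to 8.36 by edgeR).

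The rest of the named wider genes lay further from the threshold. Pgm2, a phosphoglucomutase relative, had a log2 fold change of 0.87 (SE 0.57, 95% interval -0.42 to 2.15 by edgeR), and the pyruvate dehydrogenase phosphatase Pdp2 one of -0.62 (SE 0.45, 95% interval -1.64 to 0.39). Pdhx, which anchors Dld to the complex, had -0.77 (SE 0.62, 95% interval -2.16 to 0.61), and its sign turned to 0.25 with the lens level as a covariate. Pgd and Rpe of the pentose phosphate pathway had -0.34 (SE 0.30, 95% interval -1.02 to 0.34) and -0.37 (SE 0.37, 95% interval -1.20 to 0.45). The lactate transporter Slc16a8 averaged 69.8 ± 36.7 CPM in the Col8a2 and 47.0 ± 5.90 CPM in the Tcf4+/- group (log2 fold change -0.57, SE 0.38, 95% interval -1.43 to 0.29 by edgeR). Emb, a partner protein of such transporters, spanned 5.22 to 150 CPM over the 6 libraries (log2 fold change 0.91, SE 0.83, 95% interval -0.96 to 2.77).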

How the data were processed

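Full-length cDNA libraries (SMART-Seq HT, Nextera XT) were made from RNA of corneal endothelial cells, per the labels' protocols. The submitters' processing notes list STAR, RSEM, DESeq2, fastp 0.23.2 and FastQC 0.12.1 with build GRCm39, and the annotation release is not given in the sources used here. Per the file headers, the authors deposited 1 estimated count per gene, as made by RSEM and not scaled to depth (9.97% of the values are not whole). The authors' TPM values, also deposited, had been scaled to length and depth, and a length and effective length stand beside them. TPM keeps no depth. RSEM divides reads among near-identical genes, and the labels do not say that strand was kept.

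Identifiers were matched to GENCODE M21 symbols of build GRCm38, used for names only (51884 of 57180 matched). Estimated counts were rounded, filtered with filterByExpr (17639 genes left), scaled by TMM (factors 0.9735 to 1.063) and tested with the robust quasi-likelihood test of edgeR 4.0.16 in R 4.3.3, group as the only term, Benjamini-Hochberg adjustment over all genes and a threshold of 0.05. The median SE of a log2 fold change was 0.54. The smallest p of an exact permutation test with 3 libraries a group is 0.1. The labels do not say that replicates came from separate animals, and the p-values and intervals then rest on a spread that may be partly technical. No 2 libraries agreed within counting noise. Scripts were tested on simulated counts.

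The genes and lists were chosen with earlier results of these data known. Fold change, SE and interval were printed for genes past the threshold, for the 16 of the 50 of smallest p, for the gene of highest mean TPM in each role, for the 2 of smallest p in each wider list, and for Tcf4. Marker lists were given by their sum and their 2 genes of highest TPM, where a result was set beside them; values of some marker genes are not reported here. Other genes were given by level. The alternatives were DESeq2 1.42.0, limma 3.58.1 voom, DESeq2 size factors, no filter, a mean of at least 5 CPM, log2 TPM with pseudocounts of 1 and 0.1 (with mitochondrial tRNA genes left out for the first), a replicate block, each library left out, Tcf4+/- replicates 2 and 3 left out together, and the lens or corneal endothelium marker level as a covariate.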

Additional observations from a re-analysis of the deposited data

How the results depend on the processing

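With each of the 18 alternatives, 0 of the 50 genes were called. The number of all genes called was 0 in the main analysis, 107 with DESeq2, and 0 to 4 with each library left out (4 without Col8a2 replicate 3). The median log2 fold change of the 50 genes, -0.068, was -0.23 to 0.095 with each library left out, 0.24 without Tcf4+/- replicates 2 and 3, which leaves 1 library assumed to vary like the others, and 0.097 with the lens level as a covariate. The replicate numbers did not pair the libraries (correlations of -0.024, 0.14 and -0.015), and with a replicate block the median was -0.032, 432 genes had an unadjusted p under 0.05 against 427, and Hk2 was again the only one of the 50.

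Of 646 values for 36 named genes, 609 kept their sign and 37 did not, and 19 of the 36 genes kept theirs in every alternative. The cause was not tested for any. On log2(TPM + 1) the sign turned for Hk2 (-0.0083), Mpc1 (-0.035), Aldoa (-0.18), Pfkfb3 (-0.36) and Mdh1 (-0.086), and on log2(TPM + 0.1) for the same genes (-0.0082, -0.035, -0.18, -0.40 and -0.087). Without mitochondrial tRNA genes only Aldoa (-0.018) and Pfkfb3 (-0.22) turned. With each library left out, values ran from -0.50 to 0.020 for Pdha1, -0.19 to 0.20 for Mdh1, -1.03 to 0.37 for Slc1a5, -0.80 to 0.11 for Slc2a1, -0.050 to 0.24 for Aldoa, -0.082 to 0.55 for Pfkfb3, -0.43 to 0.091 for Ldha, -0.17 to 0.78 for Got1, -0.028 to 0.49 for Mpc2 and -0.26 to 0.017 for Pdk2. Without Tcf4+/- replicates 2 and 3 the values were 0.030 for Gapdh, 0.26 for Ldha, 0.17 for Pdk2, 0.065 for Mdh2, 0.024 for Rpe and -0.75 for Emb. With the lens level as a covariate they were 0.44 for Slc1a5, 0.23 for Slc2a1, 0.092 for Pdk2 and 0.25 for Pdhx. The low counts of Pdk4, Slc2a4 and Pfkfb2 limit what can be shown for them.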
